A study of Mus musculus with 2 samples.

Results

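The 8 genes described here make the MHC class II pathway of antigen presentation in the mouse: H2-Aa, H2-Ab1, H2-Eb1, Cd74, Ciita, H2-DMa, H2-DMb1 and H2-DMb2. They were taken by symbol from the 32285 genes listed for each library, and all 8 were present. They were followed across classes of cells from subcutaneous tumors of MC38, a mouse colon adenocarcinoma line. Female C57BL/6J mice aged 6 to 8 weeks received these cells in matrigel in the right flank. One group stayed on a normal diet. The other was moved to a ketogenic diet, which is low in carbohydrate, on day 4. Tumors of both groups were taken on day 14, dead cells were removed, and CD45+ leukocytes were enriched on magnetic beads before droplet RNA sequencing of transcript 3′ ends. Each diet had 1 library, made from 5 pooled mice, so the diet and the library cannot be told apart, no test between diets was possible, and every interval below covers counting error only.

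Class II molecules are the surface receptors through which antigen presenting cells show peptides to CD4 T cells. H2-Aa encodes the alpha chain and H2-Ab1 the beta chain of I-A. H2-Eb1 encodes the beta chain of I-E, and C57BL/6 mice lack a working alpha chain partner for it, so that I-E does not reach their cell surface. Cd74, the invariant chain, blocks the peptide groove of new class II molecules and guides them to endosomes. H2-DM, an alpha chain from H2-DMa paired with a beta chain from H2-DMb1 or H2-DMb2, then exchanges the last fragment of the invariant chain for peptide. Ciita is the coactivator that switches these genes on. It does not bind DNA itself, and is recruited by the proteins RFX, CREB and NF-Y sitting on the X and Y boxes just upstream of class II genes. Dendritic cells and B cells make Ciita constitutively, and interferon gamma induces it in macrophages and other cells.

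On GRCm38, 6 of the 8 genes lie together on chromosome 17: H2-DMa at chr17:34119541-34139101, H2-DMb2 at chr17:34143307-34151555, H2-DMb1 at chr17:34153072-34160230, H2-Ab1 at chr17:34257689-34269419, H2-Aa at chr17:34282744-34287823 and H2-Eb1 at chr17:34305867-34316674. H2-Aa is read from the minus strand and the other 5 from the plus strand. Cd74 and Ciita lie apart on other chromosomes, Ciita at chr16:10480059-10528418. Matches to a Y motif, and for 3 genes to an X motif before it, could be read directly in RefSeq promoters of GRCm38.p6, which cover 300 bases around a gene's start. The stretches that hold them are shown because Ciita acts there. They run 5′ to 3′ on the strand of the gene, with the X motif (C, any 4 bases, AAC, any 2 bases, ATG) and the Y motif (TGATTGG) in capitals:

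H2-Aa (chr17:34287859-34287921, minus strand): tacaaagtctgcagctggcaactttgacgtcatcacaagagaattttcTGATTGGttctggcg

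H2-Eb1 (chr17:34305765-34305820, plus strand): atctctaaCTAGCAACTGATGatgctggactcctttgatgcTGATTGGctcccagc

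H2-DMb1 (chr17:34153086-34153142, plus strand): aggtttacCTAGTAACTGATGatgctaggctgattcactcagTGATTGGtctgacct

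H2-DMb2 (chr17:34145115-34145171, plus strand): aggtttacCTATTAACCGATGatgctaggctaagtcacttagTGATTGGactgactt

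In H2-Eb1, H2-DMb1 and H2-DMb2 an X motif stood 20 or 21 bases before a Y motif. Both strands of 32851 promoters were searched: the X motif was in 677 of them (2.06%) and the Y motif in 2568 (7.82%). An X followed within 40 bases by a Y on the same strand was found for 9 gene symbols (0.0274% of promoters), of which 3 are these members and 2 are the related genes H2-Eb2 and H2-Ob. The motifs were written from the textbook boxes after these promoters had been read, so the counts describe the letters and test nothing. The RefSeq starts of H2-DMb1 and H2-DMb2 lie downstream of the GENCODE starts, so these windows fall inside the gene spans given above. The H2-Aa promoter matched the Y motif only. Its stretch above holds ctggcaactttga before the Y motif, which differs from the X motif only in the final ATG. The missing match thus does not show that H2-Aa lacks an X box. Neither of the 2 promoters listed for H2-DMa matched either motif. H2-Ab1 and Ciita were not matched in the promoter table. The windows of H2-DMb1 and H2-DMb2 were identical at 50 of 57 bases (87.7%). Their transcripts also share sequence: of the 411 stretches of 90 bases in the last 500 bases of the H2-DMb1 transcript, 52 (12.7%) also occurred in an H2-DMb2 transcript, while of the 411 at the H2-DMb2 end 0 occurred in an H2-DMb1 transcript. The H2-DMb1 counts are thus uncertain where such reads could be split between the pair.

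The normal diet library held 37575996 UMIs (unique molecular identifiers, 1 for each captured transcript) and the ketogenic library 42710007. Barcodes with at least 500 UMIs and 300 genes numbered 5671 and 5944, with medians of 4200 and 3922 UMIs, and 7 barcode sequences occurred in both sets. Marker genes that include no class II gene gated 3927 and 4107 of these barcodes into 17 classes. Barcodes with genes of more than 1 lineage (1244 and 1257, with median depths of 9649 and 10492 UMIs) were set aside. Each class carries the name of its gate, and its 10 leading genes included markers of that name: Cd209a and Clec10a in cDC2 (conventional dendritic cells of type 2), Ccr7 and Fscn1 in mature dendritic cells, C1qa to C1qc in C1q-positive macrophages. These genes are part of the gates, so their place does not test the names. Outside the gate genes, the leading 10 held the macrophage markers Ms4a7, Apoe and Pf4 in C1q-positive macrophages. In cDC2 they held only members described here. Levels are given as counts per 1000000 UMIs of a class (CPM). The protocol captures 1 end of each transcript, so these values were not scaled by gene length, and ratios between genes serve here only to compare classes and libraries. RNA free in the suspension was read from the 605508 and 608825 barcodes of at most 100 UMIs, called near-empty below.

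Conventional and mature dendritic cells and B cells stood highest for the genes of the presenting molecule. C1q-positive macrophages and interferon-type monocytes followed, while NK cells, T cells and tumor-type cells were far lower. H2-Aa reached 8404 CPM (95% Poisson interval 8173 to 8639) in the 126 normal diet cDC2 and 7077 CPM (6782 to 7383) in the 72 ketogenic diet cDC2. It was 27.9 CPM (23.3 to 33.1) in 837 NK cells of the normal diet library and 14.8 CPM (12.2 to 17.8) in 1502 of the ketogenic one. Near-empty barcodes held 1113 and 724 CPM of H2-Aa, so that only cDC2, cDC1, mature dendritic cells, B cells, C1q-positive macrophages and interferon-type monocytes lay above them in both libraries. Neutrophils (852 and 626 CPM), plasmacytoid dendritic cells (802 and 581 CPM), Arg1-type macrophages (639 and 394 CPM) and Chil3-type monocytes (158 and 120 CPM) lay below them.

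**Figure D1:**
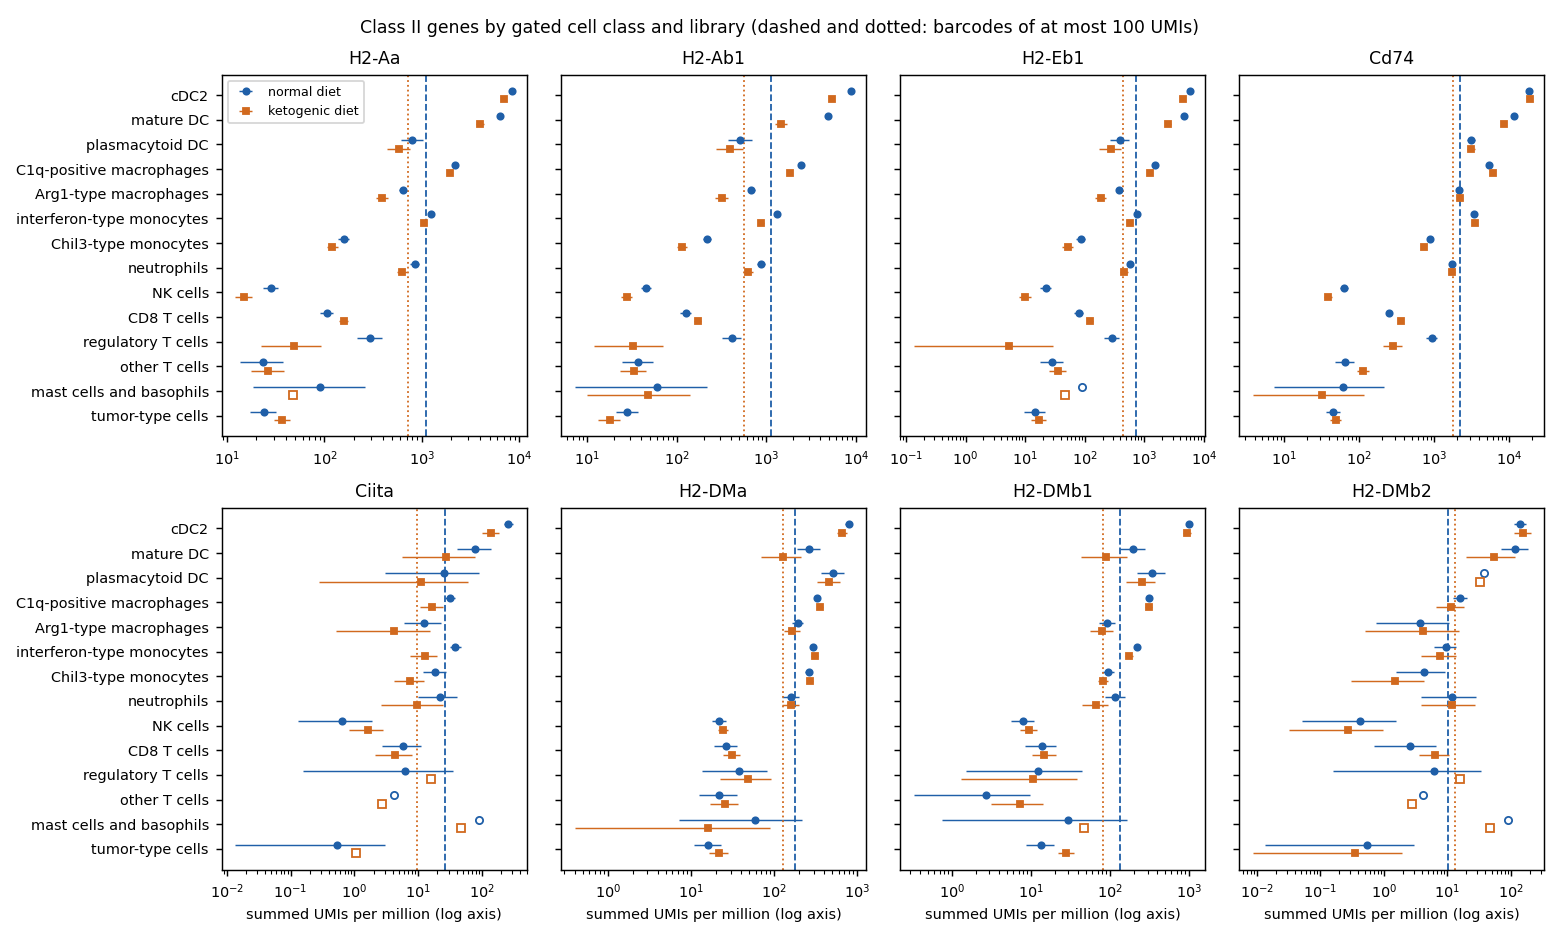
Summed level of each of the 8 genes in 14 gated classes (rows) in CPM on log axes, normal diet in circles and ketogenic diet in squares, with 95% Poisson intervals; open symbols mark 0 UMIs and are drawn at the level of 3 counts, and vertical lines show near-empty barcodes. cDC2 are highest for H2-Aa (8404 and 7077 CPM), and NK cells and tumor-type cells lie far below the lines for the presenting genes.

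Summed over H2-Aa, H2-Ab1, H2-Eb1 and Cd74, called the 4-gene sum below, cDC2 gave 41422 CPM (40908 to 41941) on the normal diet and 35752 (35084 to 36431) on the ketogenic diet. About that level was seen in cDC1, the dendritic cells that cross-present antigen, with 39055 CPM in 8 cells and 35884 CPM in 6. B cells gave 27975 and 28865 CPM from 10 and 16 cells, too few to be compared between diets. Mature dendritic cells gave 27282 and 16453 CPM, C1q-positive macrophages 11396 and 11155 CPM, and interferon-type monocytes 6702 and 6063 CPM. The first 8 places of this order were held by the same classes in both libraries, and the only exchange among these was between cDC1 and cDC2. In the ketogenic library the intervals of cDC1 (33885 to 37969) and cDC2 overlapped, and in the normal library those of cDC1 (37496 to 40662) and cDC2 did not. B cells (25479 to 30649) and mature dendritic cells (26458 to 28124) overlapped in the normal library only.

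Cd74 was the most abundant member in every class with at least 50 UMIs of the 4 genes in each library. It made up 44.0% of the 4-gene sum in normal diet cDC2 and 46.5% in C1q-positive macrophages, against 65.6% in Chil3-type monocytes and 64.5% in plasmacytoid dendritic cells. The share of Cd74 did not follow the level of H2-Aa over the classes, since it was 39.4% in NK cells and 40.3% in tumor-type cells of that library. H2-Aa UMIs per Cd74 UMI were 0.461 (0.446 to 0.477) in normal diet cDC2 and 0.180 (0.155 to 0.208) in Chil3-type monocytes, with 0.504 in near-empty barcodes of that library.

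The mean of a class hid cells at quite different levels. Each cell was thinned to 1000 UMIs so that depth did not enter, and 20 UMIs of the 4 genes were used to separate a high range from a low one. This boundary was chosen after the data had been seen and divides a continuous scale. In the normal library 87 of 126 cDC2 (69.0%, Clopper-Pearson 60.2 to 77.0) were in the high range with a median of 59 UMIs in 1000, and the remaining cells had a median of 1. In the ketogenic library 44 of 72 (61.1%, 48.9 to 72.4) were high, with medians of 56.5 and 1. Of the 126 and 72 cDC2, 12 and 7 lay within 5 UMIs of the boundary. The low cells of the cDC2 gate had more monocyte markers than the high ones (a mean of 13.8 against 8.30 UMIs in 1000 in the normal library, 13.9 against 8.05 in the ketogenic one) and fewer cDC2 markers (2.18 against 4.90, and 2.39 against 5.77). What part monocytes within the gate have in the low range was not tested.

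C1q-positive macrophages were mostly low, with a tail into the high range. That range held 166 of 762 cells (21.8%) on the normal diet and 58 of 311 (18.6%) on the ketogenic diet, and the median of high cells was 36 UMIs in 1000 in both libraries against 1 in low cells. Macrophage markers were close in the 2 ranges (19.6 and 22.5 UMIs in 1000 in the normal library, 20 and 22.2 in the ketogenic one). The high macrophages had more cDC2 markers than the low ones (a mean of 1.36 against 0.33, and 1.59 against 0.36). What part dendritic cells have within the macrophage gate was not tested. Within 5 UMIs of the boundary lay 53 of the 762 and 27 of the 311 macrophages, a smaller share than in cDC2 in each library. Among interferon-type monocytes, which carried Cxcl10, Ifit2 and Rsad2, 76 of 699 (10.9%) and 34 of 380 (8.95%) were high. Their medians were 37.5 and 41.5 UMIs in 1000 against 0 in low cells, so a minority of cells supplied most of the class II RNA of this class. The high cells had more cDC2 markers than the low ones (a mean of 2.62 against 0.74 UMIs in 1000 in the normal library, 1.91 against 0.52 in the ketogenic one) and fewer monocyte markers (15.96 against 20.8, and 13.4 against 21.0). The part of dendritic cells within this gate was not tested. The 5% of cells with the most class II RNA held 50.5% and 58.7% of the 4-gene UMIs. Chil3-type monocytes, with Chil3, Hp and Fn1, had 7 high cells of 383 and 4 of 579.

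**Figure D2:**
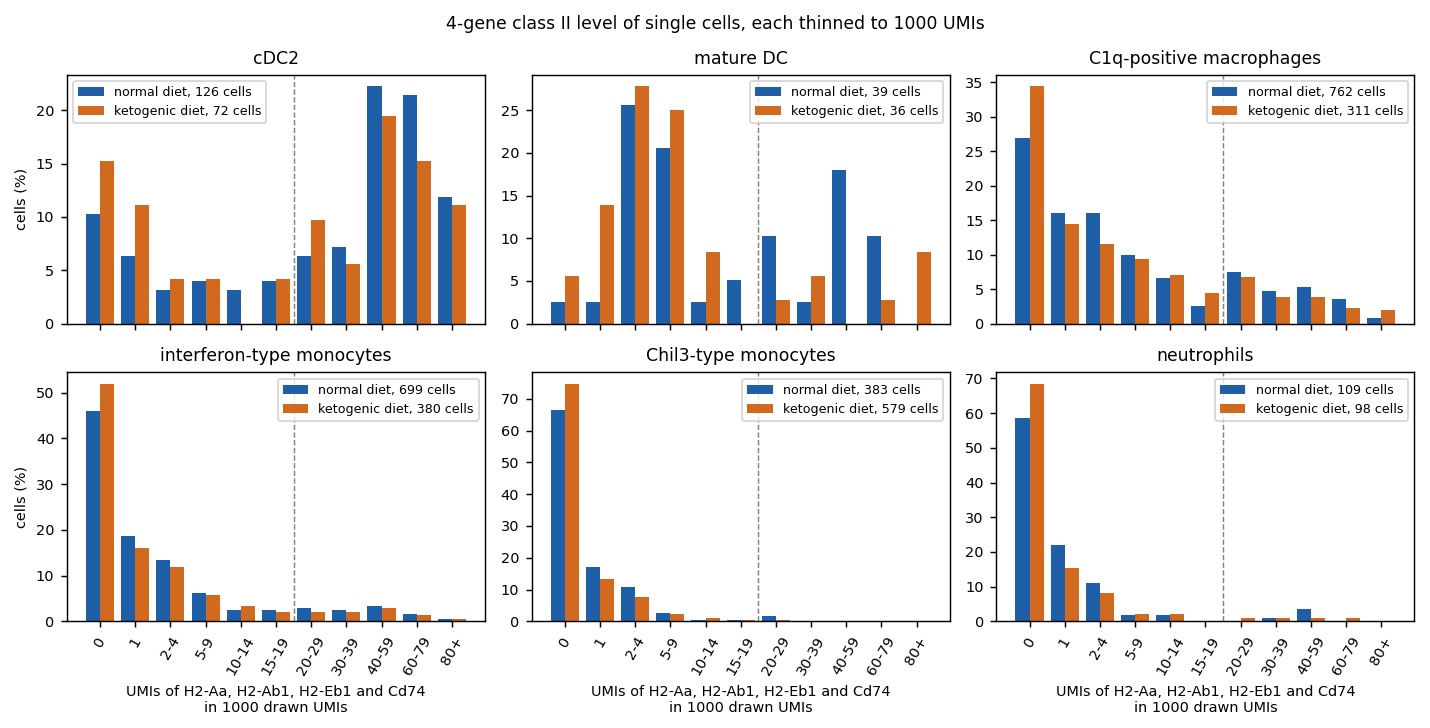
Share of cells (y axis, %) by the number of UMIs of H2-Aa, H2-Ab1, H2-Eb1 and Cd74 among 1000 UMIs drawn from each cell (x axis, binned), for 6 classes and both libraries; the dashed line is the boundary of 20. Most cDC2 lie past the boundary (69.0% of cells on the normal diet). C1q-positive macrophages and interferon-type monocytes are mostly low with a tail past the boundary (21.8% and 10.9% of cells on the normal diet). Chil3-type monocytes and neutrophils have hardly any high cells.

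In cDC2 and C1q-positive macrophages the presenting genes went together from cell to cell. Across thinned cDC2 the Spearman correlation of H2-Aa with H2-Ab1 was 0.87 (126 cells) and 0.91 (72 cells), and across C1q-positive macrophages 0.81 (762 cells) and 0.83 (311 cells). In Chil3-type monocytes, with few class II UMIs a cell, it was 0.39 (383 cells) and 0.52 (579 cells). The correlation of H2-Aa with H2-DMa was 0.35 and 0.11 in cDC2 and 0.24 and 0.26 in macrophages. These coefficients are across cells of 1 library, which share its free RNA and a cap of 1000 UMIs, and H2-DMa and H2-DMb1 are near the level of 1 UMI in 1000 even in high cDC2 (0.97 and 1.20 UMIs in the normal library), so the lower values cannot be set against the higher ones.

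Ciita was a low transcript in every class, and the order of classes was not quite that of the 4-gene sum. Among the differences in the normal library, cDC1 stood above cDC2 and interferon-type monocytes above C1q-positive macrophages, each with overlapping intervals. Chil3-type monocytes (18.5 CPM, 12.1 to 27.1) stood above Arg1-type macrophages (12.4 CPM, 5.94 to 22.8), also with overlapping intervals. In cDC2 it had 156 UMIs in the normal library, or 261 CPM (221 to 305), and 42 UMIs in the ketogenic library, or 138 CPM (99.6 to 187). cDC1 had 347 CPM (215 to 531) from 21 UMIs and 59.6 CPM from 2 UMIs. C1q-positive macrophages had 32.0 CPM (26.7 to 38.0) and 16.8 CPM (10.8 to 24.7), and interferon-type monocytes 38.5 CPM (31.5 to 46.6) and 12.6 CPM (7.45 to 19.9). Their intervals overlapped those of near-empty barcodes, at 26.4 CPM (19.1 to 35.6) from 43 UMIs and 9.62 CPM (6.22 to 14.2) from 25 UMIs. NK cells were far below, with 3 and 12 UMIs (0.639 and 1.62 CPM), and other T cells had none, where 3 counts would be 4.12 and 2.74 CPM.

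Cells with a Ciita UMI had more class II RNA than the others of their class. At 1000 UMIs a cell, the 20 normal diet cDC2 with a Ciita UMI had a median of 68 UMIs of the 4 genes, and the 106 without had 37.5. The 24 C1q-positive macrophages with a Ciita UMI had a median of 27.5 against 2 in the other 738, and the 19 interferon-type monocytes 35 against 1 in 680. In the ketogenic library 6 cDC2 had a Ciita UMI, with a median of 42 against 30.5, and 2 macrophages and 4 interferon-type monocytes had one. The share of cells with a Ciita UMI before thinning was 55.6% (46.4 to 64.4) and 36.1% (25.1 to 48.3) in cDC2, at median depths of 4321 and 3625.5 UMIs. It was 10.5% and 6.12% in C1q-positive macrophages and 0.358% and 0.732% in NK cells, a type that should lack it, at median depths of 4551 and 3818.5 UMIs.

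**Figure D3:**
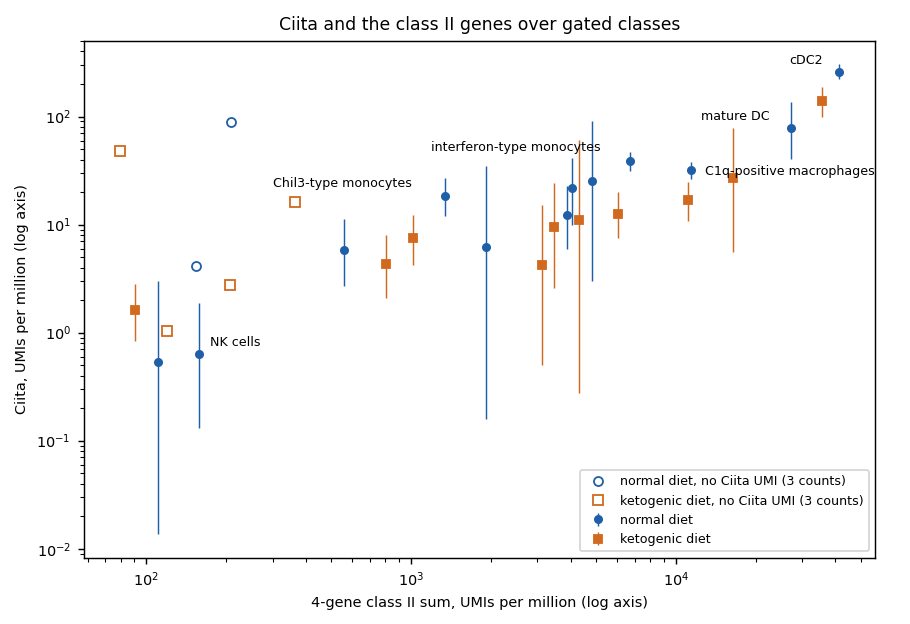
Ciita (y axis) against the 4-gene sum (x axis), both in CPM on log axes, 1 point per gated class and library, with 95% Poisson intervals for Ciita; open symbols stand at the level of 3 counts where no Ciita UMI was seen. cDC2 are at the upper right with 261 CPM of Ciita on the normal diet (circles) and 138 CPM on the ketogenic diet (squares), and NK cells at the lower left with 0.639 and 1.62 CPM.

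H2-DM had a flatter profile than the presenting molecule. H2-DMa was 792 CPM (722 to 867) in normal diet cDC2 and 651 CPM (564 to 748) in ketogenic diet cDC2. It was 514 and 460 CPM in plasmacytoid dendritic cells, 328 and 355 CPM in C1q-positive macrophages, and 260 and 268 CPM in Chil3-type monocytes. Chil3-type monocytes, far below cDC2 for H2-Aa (158 against 8404 CPM in the normal library), were thus much nearer to them for H2-DMa (260 against 792 CPM). H2-DMa UMIs per Cd74 UMI were 0.043 and 0.035 in cDC2, 0.296 and 0.368 in Chil3-type monocytes, and 0.353 (0.279 to 0.443) and 0.640 (0.528 to 0.773) in NK cells, against 0.082 and 0.073 in near-empty barcodes. H2-DMb1 was 991 and 937 CPM in cDC2 and 94.0 and 82.3 CPM in Chil3-type monocytes. Mature dendritic cells were lower than cDC2 for both: 263 and 126 CPM of H2-DMa and 197 and 90.3 CPM of H2-DMb1.

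The 2 beta chain genes of H2-DM divided by class, with the caution on shared reads given above. H2-DMb2 per H2-DMb1 UMI was 0.143 (0.113 to 0.180) and 0.165 (0.118 to 0.225) in cDC2 and 0.050 and 0.037 in C1q-positive macrophages. Mature dendritic cells gave 0.6 in both libraries, from 18 and 6 H2-DMb2 UMIs. B cells gave 4 (1.08 to 22.1) and 3 (0.749 to 17.2), from 12 and 9 H2-DMb2 UMIs. H2-DMb1 outnumbered H2-DMb2 in cDC2 and C1q-positive macrophages. The intervals of mature dendritic cells (0.315 to 1.11 and 0.179 to 1.82) included 1, and that of B cells excluded it in the normal library only. No H2-DMb2 UMI was found in plasmacytoid dendritic cells, where 3 counts would be 37.6 and 32.9 CPM.

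The comparison between the diets asks how the class II genes of each cell class stood in tumors of mice on the ketogenic diet. Ratios below are ketogenic over normal on a log2 scale, and a gene counts as lower or higher when it differs by at least 1.5-fold and had at least 50 UMIs over both libraries in that class. In cDC2, H2-Ab1 and Ciita were lower, 2 of 8 measured members, and none was higher. Of all 2542 genes measured in this class 12.3% were lower and 4.88% higher. H2-Ab1 had 8810 CPM (8574 to 9051) in the normal library and 5456 CPM (5197 to 5725) in the ketogenic library, a log2 ratio of -0.69 (interval -0.77 to -0.61). Among cells of the high range only, at 1000 UMIs a cell, H2-Ab1 was at -0.51 (-0.68 to -0.34), within the fold. Ciita had a ratio of -0.92 (-1.44 to -0.42). H2-Aa (-0.25, -0.32 to -0.17) and H2-Eb1 (-0.41, -0.50 to -0.32) differed by less than the fold used. Among high cells they were -0.13 (-0.29 to 0.02) and -0.11 (-0.30 to 0.07), and Cd74 was 0.18 (0.08 to 0.28). Over all cDC2, Cd74 stood at 18213 and 18710 CPM, a ratio of 0.04 (-0.01 to 0.09), and H2-DMb1 at -0.08 (-0.29 to 0.13). The I-A beta chain and the invariant chain thus differed in their ratios within the same cells, and the intervals of the 2 ratios did not overlap.

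Mature dendritic cells had larger differences than cDC2 for each of the 4 genes. From 43 and 42 cells, H2-Aa, H2-Ab1, H2-Eb1 and H2-DMa were lower, 4 of 5 measured members, where 11% of all 764 genes measured were lower and 7.72% higher. H2-Ab1 had 4814 CPM (4472 to 5176) in the normal library and 1462 CPM (1246 to 1705) in the ketogenic one, a log2 ratio of -1.72 (-1.97 to -1.47). H2-Eb1 had 4584 and 2527 CPM, a ratio of -0.86 (-1.06 to -0.66), and Cd74 had 11566 and 8484 CPM, a ratio of -0.45 (-0.56 to -0.33). High cells were 16 of 39 (41.0%, 25.6 to 57.9) and 7 of 36 (19.4%, 8.19 to 36.0), with overlapping intervals. In the low cells alone H2-Aa had 17 and 37 UMIs, a ratio of 0.79 (-0.08 to 1.71). With so few cells these sums rested on a handful of them: the 3 richest cells held 35.2% of the 4-gene UMIs in the normal library and 55.2% in the ketogenic one. When barcodes with genes of more than 1 lineage were kept in the class, the ratio of the 4-gene sum went from -0.73 to -0.13 and H2-Aa (-0.08) and H2-Eb1 (-0.31) came within the fold, while H2-Ab1 stayed past it at -0.84. With thinned cells H2-Aa was at -0.44, also within the fold. In plasmacytoid dendritic cells (23 and 27 cells) 0 of 6 measured members were past the fold, with 10% of all genes lower and 10.4% higher, and intervals were wide: H2-Ab1 had -0.38 (-1.07 to 0.30).

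C1q-positive macrophages had 1 of 8 members lower, Ciita at -0.93 (-1.61 to -0.31), with 14% of 7450 genes lower and 2.36% higher. The 4-gene sum differed by -0.03 (-0.06 to -0.01). That value added up unlike parts, since H2-Ab1 had -0.39 (-0.45 to -0.32), H2-Aa -0.16 (-0.22 to -0.10) and Cd74 0.20 (0.16 to 0.24). In cells of the high range, at 1000 UMIs a cell, H2-Ab1 had 9.57 UMIs a cell on the normal diet and 7.34 on the ketogenic diet (-0.38, -0.54 to -0.23). Cd74 had 17.6 and 23.3 there (0.40, 0.31 to 0.50), and the choice of cells by the 4-gene sum ties these 2 ratios together. In Arg1-type macrophages, gated on genes such as Arg1, Hmox1 and Mmp12, the presenting chains H2-Aa (-0.70), H2-Ab1 (-1.10, -1.37 to -0.84) and H2-Eb1 (-1.05, -1.40 to -0.70) were lower, 3 of 6 measured, with 14.1% of all genes lower and 3.65% higher. Cd74 there was at 2165 and 2217 CPM (0.03, -0.08 to 0.15). As a mean over cells H2-Aa (-0.47) and H2-Eb1 (-0.54) were within the fold, and with thinned cells H2-Aa was (-0.51).

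In interferon-type monocytes, H2-Ab1 (1327 and 880 CPM, a ratio of -0.59, -0.69 to -0.50) and Ciita (105 and 18 UMIs, -1.61, -2.42 to -0.88) were lower, 2 of 7 measured, and 13.1% of all genes were lower and 1.97% higher. H2-Ab1 lay just past the fold. It was -0.49 (-0.71 to -0.27) among cells of the high range, and came within it in 2 of 9 alternative settings, where it was -0.56 after subtraction of free RNA and -0.57 with mitochondrial and ribosomal genes left out of the total. In Chil3-type monocytes H2-Ab1 (-0.93, -1.19 to -0.68) and H2-Eb1 (-0.72, -1.11 to -0.33) were lower, 2 of 6 measured, with 10% of all genes lower and 2.23% higher. After subtraction of free RNA these were -0.52 and 0.14, and with barcodes of more than 1 lineage kept they were -0.51 and -0.06, all within the fold. H2-DMa was nearly level in both, at 0.06 (-0.11 to 0.23) and 0.04 (-0.15 to 0.24). With both kinds of monocyte added together the 4-gene sum gave -0.65 (-0.68 to -0.61) and 4 of 7 measured members were lower, with 11.8% of all genes lower and 2.37% higher. The mix differed between the libraries: interferon-type monocytes, the richer class, made up 713 of 1098 monocytes in the normal library and 385 of 967 in the ketogenic one. With the 2 kinds weighted equally, the ratio was -0.18.

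**Figure D4:**
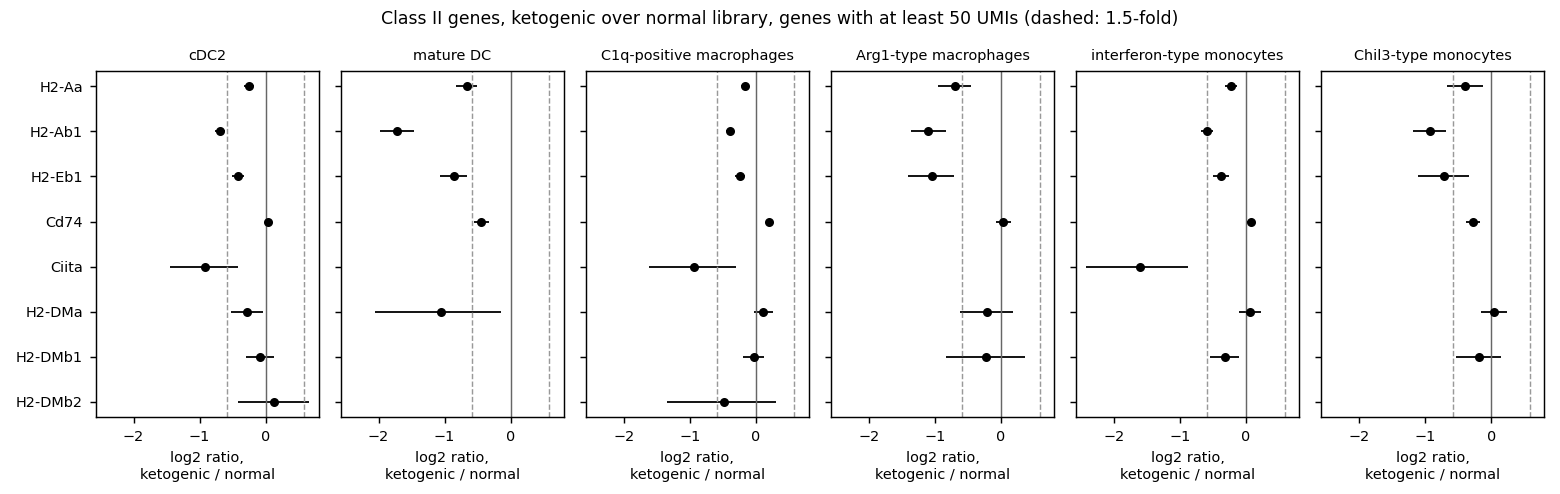
Log2 ratio of ketogenic over normal library (x axis) for members with at least 50 UMIs (rows) in 6 classes, with 95% intervals for counting error; the dashed lines mark 1.5-fold. H2-Ab1 lies left of H2-Aa and of Cd74 in every panel, from -0.39 in C1q-positive macrophages to -1.72 in mature dendritic cells, and Cd74 lies close to 0 in cDC2, Arg1-type macrophages and interferon-type monocytes.

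The ratio of the 2 chains of I-A does not depend on the totals of a class, and it was lower in the ketogenic library in most classes. H2-Ab1 UMIs per H2-Aa UMI in cDC2 were 1.05 (1.01 to 1.09) on the normal diet and 0.771 (0.723 to 0.822) on the ketogenic diet. The values were 1.11 (1.08 to 1.14) and 0.951 (0.902 to 1.002) in C1q-positive macrophages, 1.07 (1.02 to 1.12) and 0.834 (0.774 to 0.900) in interferon-type monocytes, and 0.762 (0.691 to 0.840) and 0.367 (0.305 to 0.441) in mature dendritic cells. The ratio was lower in the ketogenic library in 11 of 14 classes, by little in neutrophils (1.014 and 1.008). Intervals did not overlap only in the classes just named, Chil3-type monocytes and tumor-type cells. NK cells and plasmacytoid dendritic cells were higher. The mast cells and basophils, with 7 and 5 UMIs of the 4 genes, had 0 H2-Aa UMIs in the ketogenic library and gave no ratio. H2-Aa per Cd74 was likewise lower in 11 of 14, at 0.461 and 0.378 in cDC2 and 0.411 and 0.319 in C1q-positive macrophages. CD8 T cells and tumor-type cells were higher, and the mast cells and basophils were not counted as lower. Near-empty barcodes had the same differences, with 0.999 (0.936 to 1.07) and 0.777 (0.725 to 0.833) H2-Ab1 per H2-Aa and 0.504 and 0.410 H2-Aa per Cd74. The classes of 1 library share that free RNA, and its part in the ratios of classes poor in class II was not tested. In cDC2 the 4-gene sum was 801% and 1025% of the near-empty level.

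**Figure D5:**
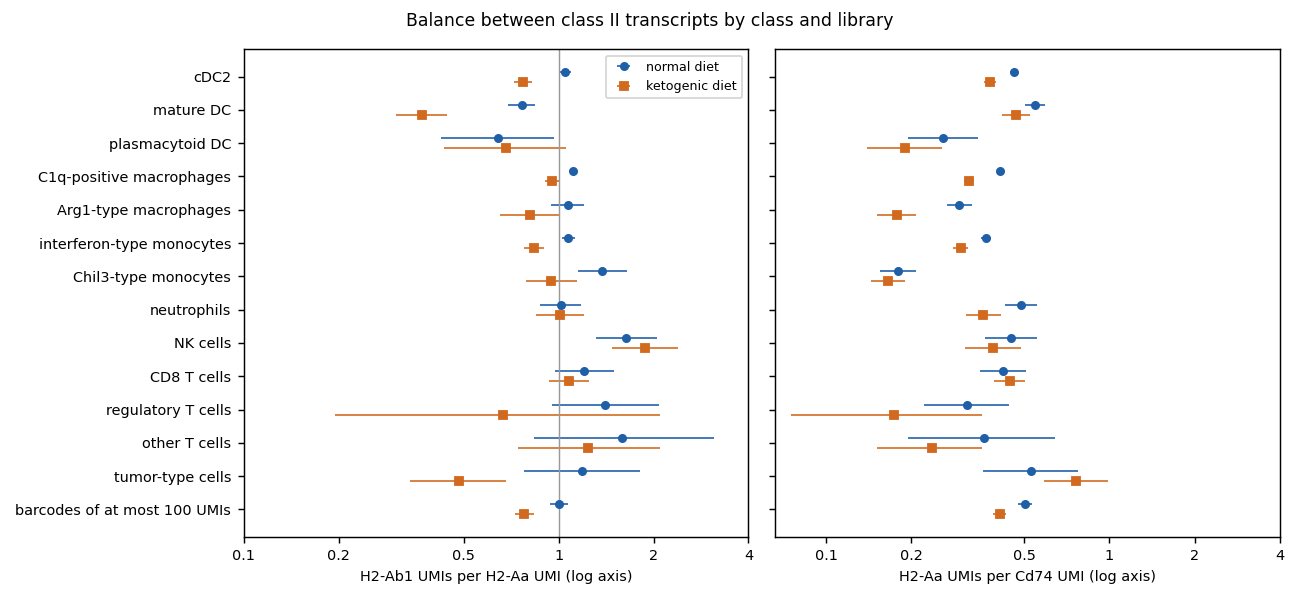
H2-Ab1 UMIs per H2-Aa UMI (left) and H2-Aa UMIs per Cd74 UMI (right) on log axes by class (rows), normal diet in circles and ketogenic diet in squares, with 95% intervals for counting error. In cDC2, mature dendritic cells, C1q-positive macrophages and interferon-type monocytes the ketogenic value of the left panel is below the normal one with intervals that do not overlap (1.05 and 0.771 in cDC2), and near-empty barcodes differ alike (0.999 and 0.777).

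Properties of the whole libraries moved with these results. In near-empty barcodes H2-Ab1 had a log2 ratio of -0.98 (-1.08 to -0.88), H2-Aa -0.62, H2-Eb1 -0.76, Cd74 -0.32, H2-DMa -0.49 and Ciita -1.46 (-2.23 to -0.71). Ribosomal protein genes took 16.2% and 18.7% of the UMIs of cDC2 and 11.4% and 12.7% of those of C1q-positive macrophages, and mitochondrially encoded genes 1.76% and 1.32%, and 1.58% and 1.05%. The 25% of measured genes with the longest transcripts had a median log2 ratio of -0.12 in cDC2 and -0.30 in both C1q-positive macrophages and interferon-type monocytes, against 0.07, 0.06 and 0.06 for the 25% with the shortest. Ciita, with a longest annotated transcript of 6007 bases, belongs to the longest 25%, and H2-Ab1, with 1212 bases, to the shortest. The part of these library properties in the Ciita ratios was not tested. Over all genes with at least 50 UMIs the median was -0.05 in cDC2, -0.13 in C1q-positive macrophages and -0.14 in interferon-type monocytes, beside medians of -0.27, -0.20 and -0.33 for the measured members.

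Lymphocytes other than B cells, neutrophils and tumor-type cells had less class II RNA than conventional and mature dendritic cells and C1q-positive macrophages. In summed counts of the normal library neutrophils, at 4041 CPM of the 4-gene sum, stood near Arg1-type macrophages (3871). With cells thinned to 1000 UMIs, which left out 94 and 55 neutrophils, they were lower. They had 2899 against 3898 CPM in the normal library and 2551 against 3692 CPM in the ketogenic one. How far a few barcodes held the 4-gene UMIs differed by class: the richest 5% of cells held 43.3% and 53.9% of them in NK cells, 33.9% and 64.3% in other T cells and 20.4% and 62.0% in tumor-type cells. In NK cells the 4-gene sum was 158 and 90.6 CPM, 3.05% and 2.60% of the near-empty level. Macrophage markers there were 81.5 and 42.5 CPM, also lower in the ketogenic library, and stood at 2.91% and 4.26% of their near-empty level. The 4-gene sum had a ratio of -0.80 (-0.95 to -0.65), and 4 of 6 measured members were lower where 6% of all genes were lower and 1.8% higher. What part RNA of other cells has in these ratios was not tested. With thinned cells Cd74 (-0.42) and H2-Ab1 (-0.28) were within the fold. At 1000 UMIs a cell 0 of 820 and 0 of 1459 NK cells were in the high range, with Clopper-Pearson upper limits of 0.449% and 0.253%. In neutrophils 1 of 6 measured members was lower, H2-DMb1 at -0.83 (-1.55 to -0.13), with 11.7% of all genes lower and 6.83% higher, and that ratio was 0.57 with thinned cells and 0.21 without the deepest 5% of cells. The richest 5% of neutrophils held 88.6% and 86.4% of the 4-gene UMIs, and the 5 and 4 high cells had means of 17.8 and 13.2 UMIs in 1000 of neutrophil markers, against 62.8 and 72.7 in the others, beside 13.6 and 16.2 of monocyte markers.

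CD8 T cells were the only class with at least 100 UMIs of the 4 genes in each library where more than 1 chain of the presenting molecule was higher. H2-Aa had 105 and 158 CPM (0.59, 0.32 to 0.87) and H2-Eb1 79 and 123 CPM (0.63, 0.32 to 0.95), 2 of 6 measured members, with 3.31% of all genes higher and 8.95% lower. The share of CD8 T cells with any of the 4 genes was not higher, at 48.1% (42.1 to 54.0) and 29.7% (25.02 to 34.8). The richest 5% of the cells held 79.7% and 93.6% of these UMIs, and 1 and 4 cells were in the high range. H2-Aa came within the fold in 4 of 9 alternative settings and H2-Eb1 in 2: with barcodes of more than 1 lineage kept both ratios were -0.18, and with gate thresholds raised 2-fold 0.12 and 0.13. Without the deepest 5% of cells they were 2.31 and 2.33. In regulatory T cells, gated on Foxp3 (32 and 36 cells), H2-Aa, H2-Ab1 and Cd74 were lower, 3 of 3 measured, with 9.71% of all genes lower and 8.62% higher. However, 2 of the 32 normal diet cells held 83.1% of the 308 UMIs of the 4 genes. With barcodes of more than 1 lineage kept, H2-Aa (-0.55) and Cd74 (-0.46) were within the fold and H2-Ab1 (-0.66) was past it. Other T cells had 1 of 3 measured members higher, Cd74 at 0.80 (0.31 to 1.32, and -0.53 with barcodes of more than 1 lineage kept), with 4.44% of all genes higher and 8.75% lower. Mast cells and basophils had no measured member, with 9.42% of 276 genes lower and 13% higher. Tumor-type cells, with 111 and 120 CPM of the 4-gene sum at median depths of 31303 and 30839.5 UMIs, had H2-Ab1 lower (-0.66) and H2-Aa (0.63) and H2-DMb1 (1.06) higher of 6 measured, though the first 2 changed sign with thinned cells (0.063 and -0.52), with 8.42% of all genes lower and 4.38% higher. Barcodes that joined cells of different types were removed only as far as the markers of different lineages showed them, and their part in these classes was not tested.

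Of the genes around the pathway, the interferon gamma route to Ciita (Ifngr1, Ifngr2, Jak1, Jak2, Irf1 and Socs1) had 6 of 6 measured in cDC2, with Socs1, an inhibitor of JAK kinases, lower at -0.65 (-1.40 to 0.05). In C1q-positive macrophages, Arg1-type macrophages and both kinds of monocyte 6 of 6 were measured, and 0 were past the fold in either direction. Of all genes, 12.3% were lower and 4.88% higher in cDC2. In the other classes named, 10% to 14.1% were lower and 1.97% to 3.65% higher, so 6 genes are too few to set against these shares. Irf1, a transcription factor that acts at the Ciita promoter, had 189 and 250 CPM in cDC2 and 273 and 308 CPM in interferon-type monocytes.

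Among 10 genes of class II transcription, Irf8, a factor of dendritic cell and monocyte development, was lower in C1q-positive macrophages (352 and 225 CPM, -0.65, -0.83 to -0.48) as 1 of 8 measured. That count is near the share of all genes lower in this class, 14%. Irf8 was also lower in Chil3-type monocytes (-0.79), neutrophils (-0.69), NK cells (-0.61), regulatory T cells (-0.66) and other T cells (-0.75). Spi1, which encodes the myeloid factor PU.1, was lower in mature dendritic cells (-0.89, -1.52 to -0.29), 1 of 2 measured, with 11% of all genes lower. Nfyc, a subunit of NF-Y, was lower in CD8 T cells (-0.84, -1.51 to -0.17). Rfx5, a subunit of RFX, had too few UMIs to be measured in cDC2, with 11 and 2. H2-Oa and H2-Ob encode H2-DO, an inhibitor of H2-DM. H2-Oa had 142 and 98.7 CPM in cDC2 (85 and 30 UMIs, -0.53, -1.18 to 0.09) and 8.65 and 3.35 CPM in C1q-positive macrophages. H2-Eb2, a relative of H2-Eb1, had 28 and 6 UMIs in mature dendritic cells against 2 and 0 in cDC2.

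Genes of antigen processing and surface turnover differed in both directions. In cDC2 8 of 8 were measured, with 12.3% of all genes lower and 4.88% higher. The proteases Ctsl (-1.35, -2.49 to -0.35), Ctsb (-0.61) and Lgmn (-0.84, -1.37 to -0.34) were lower. Cd83, which keeps class II at the surface by opposing its ubiquitination, was higher at 145 and 293 CPM (1.01, 0.57 to 1.45). Cd83 was higher also in interferon-type monocytes (77.7 and 152 CPM, 0.97, 0.69 to 1.25) and Arg1-type macrophages (0.64), and in neutrophils (0.60, -0.10 to 1.31) and NK cells (0.64). Ctss, the protease that trims the invariant chain, was nearly level in cDC2, at 2550 and 2559 CPM, and lower in tumor-type cells (-1.32). Ctsd was lower in interferon-type monocytes (-0.82, -1.002 to -0.645), neutrophils (-1.05) and the mast cells and basophils (-0.66). Ctsb was lower in mature dendritic cells (-1.35, -2.19 to -0.57) and other T cells (-0.66), Lgmn in NK cells (-1.78, -2.45 to -1.13) and CD8 T cells (-0.93), and Ctsl in NK cells (-0.66). Ifi30, a thiol reductase of endosomes, was higher in plasmacytoid dendritic cells (0.68, 0.26 to 1.12) and neutrophils (0.58). Of the costimulatory genes Cd80, Cd86 and Cd40, 3 of 3 were measured in interferon-type monocytes, where 13.1% of all genes were lower. Cd86 was lower there (365 and 233 CPM, -0.65, -0.83 to -0.47). In neutrophils Cd80 (-0.62, -1.38 to 0.11) and Cd40 (-0.86, -1.75 to -0.01) were lower. With both kinds of monocyte added together, Ctsd (-0.69), Lgmn (-0.76) and Cd86 (-0.72) were lower and Cd83 (0.60) was higher.

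The gene whose level over classes was most like the 4-gene sum, apart from the members and the gate markers, was Cd86, a costimulatory ligand, with a Pearson r of 0.92 on log2(CPM + 20). It was followed by Grb2 (0.92), Spon1, Csf2rb2, Ctsh and Ass1 (0.89 each), Cd40 (0.89), Scamp2, F11r and Fgd2 (0.88 each). Cd86 had 312 and 240 CPM in cDC2 and 6.39 and 4.71 CPM in NK cells. The members themselves had r of 0.83 (Ciita), 0.89 (H2-DMa), 0.89 (H2-DMb1) and 0.80 (H2-DMb2) with that sum. Most like Ciita were Ppm1m (0.90), St8sia1 (0.90), Hfe (0.88), Pip4k2a (0.86) and Rab43 (0.86), and among the members H2-DMb2 (0.93). Each r is over 24 points, 12 classes in 2 libraries, which share depth and free RNA within a library, and many of the points for Ciita rest on under 20 UMIs.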

How the data were processed

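The deposited matrices hold raw UMI counts per gene and barcode, unfiltered, made with Cell Ranger version 4 per the file headers. The submitters' processing notes name Cell Ranger 6.0.0, Seurat 3.2.0, GRCm38 and mm10. No deposited table maps cells to types, so each barcode with at least 500 UMIs and 300 genes was assigned here by thresholds on summed marker counts that use no class II gene. Barcodes above 10% mitochondrial UMIs, or with genes of more than 1 lineage, were set aside. No doublet caller was run. Counts were summed per class and library and divided by the total of the class.

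With 1 library per diet no test was made. Intervals are 95% exact Poisson (levels), Clopper-Pearson (shares) and conditional binomial (ratios), and cover counting error only. The ratio calculation was tested on simulated Poisson counts with known folds. These had no spread between cells or libraries, so that test covers counting error only. Thinning drew 1000 UMIs a cell without replacement and left out shallower cells. Gene positions are from GENCODE on GRCm38 and promoters from RefSeq. The 8 genes, the gene lists, the gates and the fold of 1.5 were chosen with earlier results of these data known. All 8 members were named in every class with at least 20 cells in each library, the 10 genes most like the 4-gene sum and the 5 most like Ciita, among genes with at least 200 UMIs, and pathway genes past the fold. A gene of the interferon gamma list is not reported here and was left out of its counts. Likeness used classes of at least 30 cells and a pseudocount of 20 CPM. Tables were handled in pandas 2.3.3 and numpy 2.4.6, intervals came from scipy 1.17.1, and sequences were compared with biopython 1.88, under Python 3.11.15.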

Additional observations from a re-analysis of the deposited data

How the results depend on the processing

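No paired analysis was possible because each diet had 1 library. For 9 alternatives, applied 1 at a time, the ratio of the 4-gene sum moved beyond its counting interval in each class tried. In C1q-positive macrophages (-0.03) it was -0.080 with thinned cells. In cDC2 (-0.21) it was -0.17 without mitochondrial and ribosomal genes in the total. In mature dendritic cells (-0.73) it was -0.54 with thinned cells and -0.13 with barcodes of mixed lineage kept. In NK cells (-0.80) it was -0.98 with gate thresholds raised 2-fold, and subtracting free RNA gave no value. In all monocytes (-0.65) it was -0.81 without the deepest 5% of cells, -0.60 after subtracting free RNA, -0.76 as a mean over cells, -0.58 with mixed barcodes kept, -0.87 with raised thresholds, -0.73 with thinned cells, and -0.18 with both kinds weighted equally, which was chosen after seeing the data. In the other classes it ranged from -0.43 to -0.08 in Arg1-type macrophages (-0.31), -0.33 to -0.11 in interferon-type monocytes (-0.14), -0.58 to -0.10 in Chil3-type monocytes (-0.40), -0.36 to 0.28 in neutrophils (-0.22), -0.23 to 2.13 in CD8 T cells (0.53), -5.22 to -0.55 in regulatory T cells (-2.39), -0.74 to 0.46 in other T cells (0.43), -0.24 to 0.06 in plasmacytoid dendritic cells (-0.16) and -0.89 to 0.74 in tumor-type cells (0.11).

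Of 76 member and class pairs 28 were past 1.5-fold, 21 of these kept their sign in every alternative and 10 stayed past the fold in every one, among them Ciita in cDC2 (-1.31 to -0.78), C1q-positive macrophages (-2.41 to -0.89) and interferon-type monocytes (-2.06 to -1.23) and H2-Ab1 in cDC2 (-0.85 to -0.65), mature dendritic cells (-1.86 to -0.84) and Arg1-type macrophages (-1.21 to -0.70). Of the 48 pairs within the fold 24 changed sign in some alternative. Over the classes of these pairs, 6% (NK cells) to 14.1% (Arg1-type macrophages) of all measured genes were lower. Those higher were 1.8% (NK cells) to 10.4% (plasmacytoid dendritic cells). How many other genes would stay past the fold in every alternative was not computed, so these counts cannot be set against other genes. With mixed barcodes kept, Cd74 in other T cells was -0.53, H2-Aa in CD8 T cells -0.18 and in tumor-type cells -0.59, and H2-Eb1 in CD8 T cells -0.18, each of opposite sign. With thinned cells H2-Aa in tumor-type cells was -0.52, H2-Ab1 there 0.063 and H2-DMb1 in neutrophils 0.57. H2-Ab1 in tumor-type cells was 0.14 as a mean over cells, H2-DMb1 in neutrophils 0.21 without the deepest cells, and H2-Eb1 in Chil3-type monocytes 0.14 after subtracting free RNA. The causes were not tested.

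Among genes with at least 100 UMIs rather than 50, 7.84% were lower in cDC2, 6.67% in mature dendritic cells, 3.84% in NK cells, 5.59% in CD8 T cells, 4.41% in other T cells and 5.15% in tumor-type cells, and 1.29% were higher in interferon-type monocytes, 1.05% in NK cells and 2.62% in other T cells. In barcodes of at most 50 UMIs, H2-Ab1 was 1135 and 562 CPM.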
